A study of Mus musculus with 14 samples.

Results

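Sphingosine-1-phosphate (S1P) is a lipid messenger of brain and blood vessels, and 9 genes that make, export, sense or degrade it were followed in mouse hippocampus. They comprised the receptors S1pr1, S1pr2, S1pr3, S1pr4 and S1pr5, the sphingosine kinases Sphk1 and Sphk2, the S1P lyase Sgpl1 and the exporter Spns2. The genes were chosen by name, and all 9 were found among the 24421 genes of the count table. RNA sequencing had been done on hippocampi of 7 mice labelled LPAR2-/- and 7 wild-type (WT) mice, a comparison that addresses the loss of LPAR2, a receptor for lysophosphatidic acid. All 14 mice were untreated males of the strain labelled 129.C57Bl6, with an age of 10 to 12 weeks in the labels. The series text instead describes them as middle-aged or older, so their age is not known. The tissue is the hippocampus in the labels and in the study's methods, while the dentate gyrus is named elsewhere in the study. In the knockout a stretch of an Lpar2 exon is missing. Knockouts were bred from knockouts and the WT mice, of mixed C57BL/6 and 129/SvJ origin, came from their own breeding. Genotype and colony therefore cannot be told apart. Each library is 1 mouse, and the reads counted on genes ranged from 15434620 to 23258949 (median 19499276) in LPAR2-/- mice and from 16373410 to 21992980 (median 19964167) in WT mice.

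Sphingosine is phosphorylated by the sphingosine kinases to S1P, which leaves the cell through transporters such as SPNS2 and binds a family of G protein-coupled receptors related to the lysophosphatidic acid receptors. Inside the cell S1P is either dephosphorylated and returned to the ceramide pool, or cleaved irreversibly by the lyase SGPL1. In brain, S1P signaling is known for its roles in astrocytes, myelinating oligodendrocytes, the vascular barrier and synaptic transmission.

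The promoters of both kinases are shown because the kinases carried the largest difference and the single difference past the threshold. The largest, that of Sphk1, did not pass (edgeR adjusted p = 0.344). The direction of the other, that of Sphk2, cannot be taken as measured, as described below. They are RefSeq windows of the GRCm38.p6 assembly, 250 bases before to 50 bases after a transcription start that coincides with the start of the counted gene. Capitals mark a GC box (GGGCGG, either strand). The Sphk2 window is chr7:45717953-45718252 on the minus strand, with 66% G and C, and the Sphk1 window is chr11:116531661-116531960 on the plus strand, with 58% G and C and no match to a motif searched.
Sphk2 promoter: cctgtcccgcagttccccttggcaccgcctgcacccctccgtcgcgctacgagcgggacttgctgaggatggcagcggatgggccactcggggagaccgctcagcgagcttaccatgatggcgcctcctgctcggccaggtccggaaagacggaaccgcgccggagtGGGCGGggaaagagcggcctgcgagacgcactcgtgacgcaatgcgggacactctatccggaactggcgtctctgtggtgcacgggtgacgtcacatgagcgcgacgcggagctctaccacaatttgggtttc
Sphk1 promoter: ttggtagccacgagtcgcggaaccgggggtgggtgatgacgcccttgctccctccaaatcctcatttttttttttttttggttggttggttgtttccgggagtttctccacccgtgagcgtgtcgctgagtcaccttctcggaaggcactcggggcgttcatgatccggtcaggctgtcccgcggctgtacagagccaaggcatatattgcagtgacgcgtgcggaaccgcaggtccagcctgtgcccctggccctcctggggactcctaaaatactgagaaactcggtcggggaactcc
Promoter windows were found for 8 of the 9 genes, 13 windows in total, with several starts for the kinases. A GC box occurred in 6 of these 13 windows, compared with 35.7% of all 32851 RefSeq windows of 300 bases. The E-box CACGTG was found in 2 of them (7.15% of all windows), in overlapping windows of further Sphk1 starts, and TATAAA in 1 (13.6%), also of Sphk1. The D-box TTANGTAA, a motif bound by the clock factor DBP and its relatives, was found in 0 of the 13 windows (2.32% of all windows). Both strands were searched, and no motif contains another. A match describes letters in a window, not binding.

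Lpar2, the targeted gene (mm10 chr8:69822565-69831102, plus strand), had 144 to 234 counts in mice labelled LPAR2-/- and 27 to 66 counts in WT mice. Its counts were thus higher in the mice labelled as knockouts, with a log2 fold change of 2.01 ± 0.16 (SE, n = 7 and 7, edgeR adjusted p = 8.22e-07), and the groups did not overlap. The count table gives 1 value per gene and does not separate the deleted stretch from the rest, so it cannot show the deletion. This direction goes against a plain reading of the label, and "LPAR2-/-" below names the mice as labelled. Hippocampal origin was assessed by 8 markers of dentate gyrus and CA neurons (among them Prox1, Dsp and Wfs1). All 8 were detected, with summed levels of 656.1 to 761.0 CPM (counts scaled to 1000000 per library) in LPAR2-/- and 634.5 to 748.0 CPM in WT mice.

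Levels of the 9 genes were compared per length, as TPM (counts per exon length, scaled to 1000000 per library), and spanned a wide range. S1pr1 (mean 165.7 TPM, range 117.4 to 205.0 over 14 mice) and Spns2 (147.0 TPM, range 122.3 to 181.5) were the most abundant, and their ranges overlapped. Both lay near the top decile of the 14897 genes tested, at the 91.6th and 90.1th percentile of mean TPM. Sphk2 (40.2 TPM, range 34.4 to 43.8) and Sgpl1 (35.6 TPM, range 31.2 to 39.6) formed a middle level and overlapped each other, but in all 14 mice Spns2 lay above Sphk2. S1pr5 (8.96 TPM, range 6.45 to 16.6) and S1pr3 (7.45 TPM, range 5.95 to 9.02) came next, each below Sgpl1 in every mouse, with overlapping ranges. S1pr2 (2.93 TPM, range 2.04 to 3.95), Sphk1 (2.61 TPM, range 0.350 to 7.43) and S1pr4 (0.834 TPM, range 0.465 to 1.25) were the least abundant. S1pr2 lay below S1pr3 without overlap, whereas Sphk1 overlapped both of its neighbours in this order. Within the pathway the exporter and the kinase Sphk2 were thus detected at far higher levels than the kinase Sphk1, and 1 receptor made up most of the receptor transcripts.

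**Figure D1:**
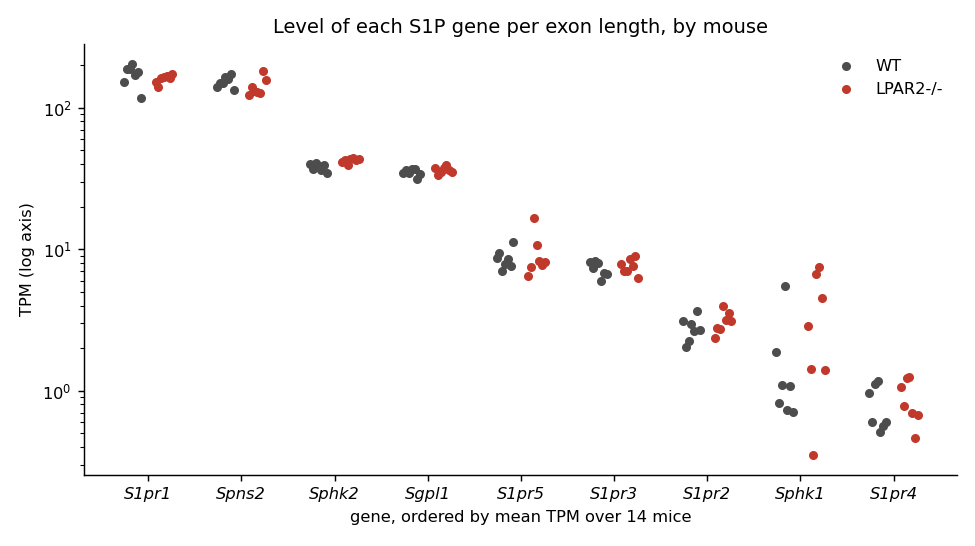
Length-scaled level (TPM, log axis) of the 9 S1P genes in each of 7 WT (grey) and 7 LPAR2-/- mice (red), 1 point per mouse, genes ordered by their mean over 14 mice. S1pr1 and Spns2 lie above 100 TPM in all mice, and Sphk1 spreads from 0.350 to 7.43 TPM, more widely than any other member.

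Genotypes were compared gene by gene with edgeR over all 14897 genes that passed the filter on low counts, and all 9 members passed. Of the 9 genes 1 gene, Sphk2, differed at an adjusted p under 0.05 (11.1%), against 6.77% of all genes tested. It was higher in LPAR2-/- mice, a direction called for 3.32% of all genes, while 0 of the 9 were lower by edgeR, DESeq2 or limma, against 3.46% of all genes. Sphk2 overlaps the gene Dbp on the opposite strand, and its direction cannot be taken as measured. With the overlapping share of Dbp counts subtracted it stood at -0.17, a direction that the subtraction fixes by its size. Values of that overlap are given with Sphk2. Among all genes tested, 494 were higher and 515 lower, and without WT mouse 2 the numbers were 275 and 292. At an unadjusted p under 0.05 the number was also 1 of 9, compared with 22.4% of all genes. In total 7 of the 9 log2 fold changes were above 0 and 2 below, with a median of 0.12, compared with 0.00 over all genes. This tally and median depend in part on Sphk2, which turned with the subtraction, and on S1pr5. The value of S1pr5 was -0.087 without LPAR2-/- mouse 3. None of the 9 genes separated the genotypes without overlap, a pattern seen in 1.76% of all genes tested. In bulk tissue, fewer cells of a type and less RNA per cell cannot be told apart. The p-values set the difference between the groups against the spread between these mice, and the groups differ in colony as well as in genotype.

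**Figure D2:**
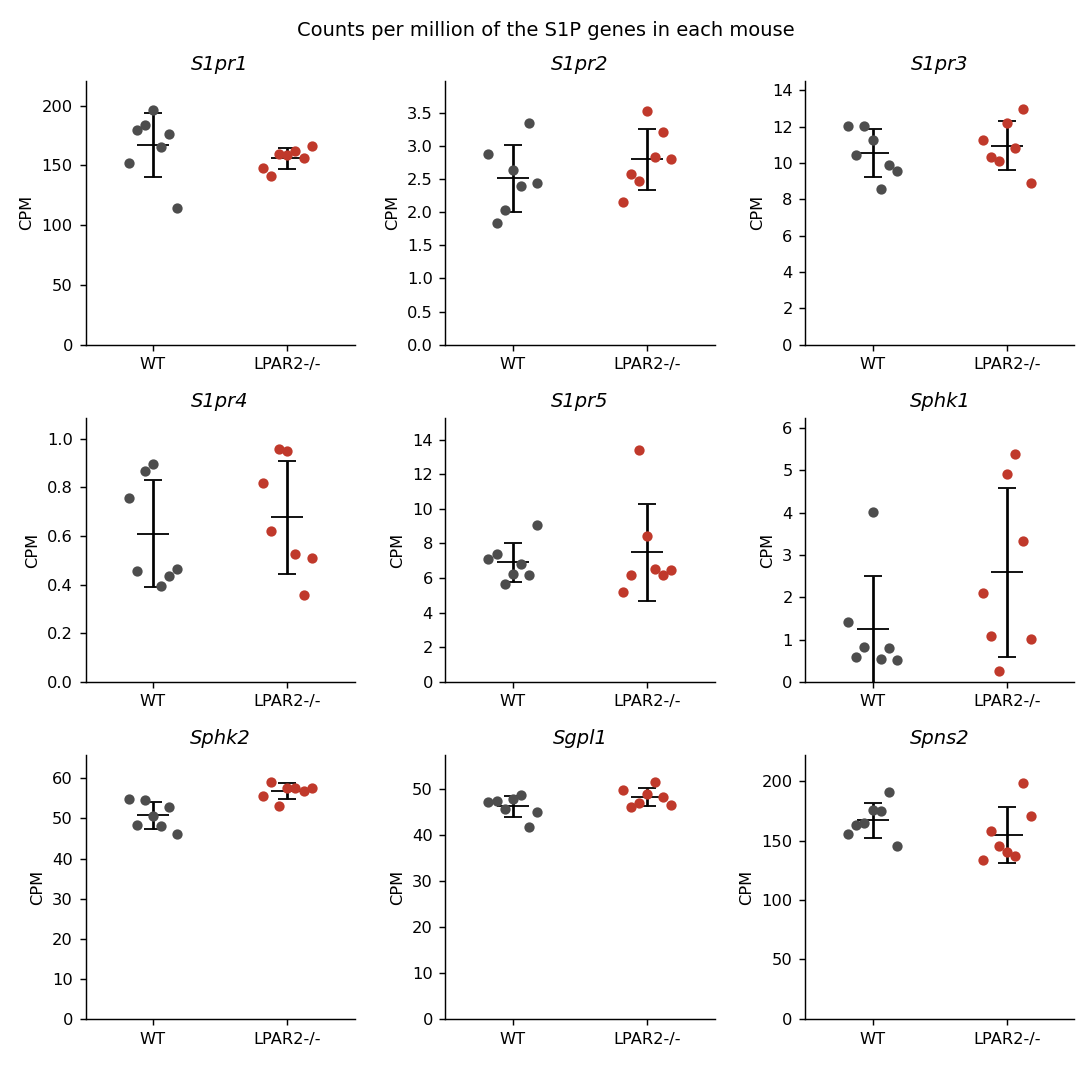
CPM (linear axis from 0) of each S1P gene in 7 WT (grey) and 7 LPAR2-/- mice (red), 1 point per mouse, with the mean and SD as horizontal line and bars. For Sphk2, 6 LPAR2-/- mice lie above the highest WT mouse at 54.8 CPM, and the groups of the other 8 genes overlap more broadly.

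S1pr1 encodes the receptor that governs lymphocyte egress and vascular integrity and is abundant in astrocytes (chr3:115710433-115715055, minus strand). Its lowest, median and highest levels were 141.1, 158.3 and 166.2 CPM in LPAR2-/- mice and 114.6, 176.1 and 196.5 CPM in WT mice. All 7 LPAR2-/- mice lay below the WT median, but the lowest value of all was that of a WT mouse, so the groups overlapped. This corresponds to a log2 fold change of -0.10 ± 0.090 (SE, 95% confidence interval -0.29 to 0.09, edgeR adjusted p = 0.555). Without that WT mouse 7 it was -0.17 (edgeR adjusted p = 0.0802), and without WT mouse 4 it was -0.054 (edgeR adjusted p = 0.782). S1pr1 supplied 88.5% ± 1.68 (SD, n = 7) of the summed TPM of the 5 receptors in LPAR2-/- mice and 89.5% ± 2.38 (SD, n = 7) in WT mice. The summed receptor level ranged from 158.4 to 190.3 TPM in LPAR2-/- and from 138.6 to 224.9 TPM in WT mice, with overlap.

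S1pr2 encodes a receptor that opposes cell migration (chr9:20965952-20976793, minus strand). Its counts were low, 42 to 82 in LPAR2-/- and 40 to 61 in WT mice. Lowest, median and highest levels were 2.15, 2.81 and 3.53 CPM in LPAR2-/- mice against 1.83, 2.44 and 3.34 CPM in WT mice. In 6 of 7 LPAR2-/- mice the level was above the WT median and the groups overlapped, with a log2 fold change of 0.16 ± 0.15 (SE, interval -0.15 to 0.47, edgeR adjusted p = 0.551). S1pr3, a receptor of vascular and glial cells (chr13:51408618-51422797, plus strand), showed 8.93, 10.9 and 12.98 CPM in LPAR2-/- and 8.57, 10.4 and 12.1 CPM in WT mice. These groups overlapped over most of their range, and the log2 fold change was 0.05 ± 0.093 (SE, interval -0.14 to 0.25, edgeR adjusted p = 0.779). S1pr4, known from lymphoid and myeloid cells (chr10:81497745-81500137, minus strand), gave 6 to 22 counts in LPAR2-/- and 7 to 18 counts in WT mice, all above the floor of 3 counts that a count of 0 allows. Its lowest, median and highest levels were 0.357, 0.619 and 0.956 CPM in LPAR2-/- and 0.392, 0.465 and 0.894 CPM in WT mice. The log2 fold change of 0.17 ± 0.26 (SE, interval -0.38 to 0.73, edgeR adjusted p = 0.753) spans 0.766- to 1.66-fold as an interval, and a difference within it was not detectable at this depth. Single omissions moved these small differences, and no omission brought one past the threshold. S1pr2 fell to 0.095 without WT mouse 2, S1pr3 ranged from 0.0084 without WT mouse 5 to 0.095 without LPAR2-/- mouse 7, and S1pr4 from 0.067 without LPAR2-/- mouse 3 to 0.29 without WT mouse 4. The 3 receptors supplied 1.71%, 4.22% and 0.486% of the receptor TPM in LPAR2-/- mice and 1.48%, 3.89% and 0.414% in WT mice, for S1pr2, S1pr3 and S1pr4.

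S1pr5, the receptor of mature oligodendrocytes and natural killer cells (chr9:21242917-21248443, minus strand), stood out by a single mouse. Its lowest, median and highest levels were 5.17, 6.44 and 13.4 CPM in LPAR2-/- mice and 5.65, 6.81 and 9.07 CPM in WT mice. The highest value belonged to LPAR2-/- mouse 3, while 5 of 7 LPAR2-/- mice lay below the WT median. Over all mice the log2 fold change was 0.12 ± 0.18 (SE, interval -0.27 to 0.51, edgeR adjusted p = 0.746). It turned to -0.087 (edgeR adjusted p = 0.708) without LPAR2-/- mouse 3. The 9 oligodendrocyte markers, which include Mbp, Mog and Mag, were highest in the same mouse, with a summed level of 3853 CPM against 922.9 to 1905 CPM in the other LPAR2-/- mice and 1148 to 1981 CPM in WT mice. Over 14 mice with the genotype means removed, S1pr5 correlated with the mean log2 CPM of these markers (Pearson r = 0.88, permutation p = 0.00138, adjusted p = 0.0455 over 99 relations). Spearman's rho was 0.75 (permutation p = 0.00503, adjusted p = 0.124). Without the 2 mice farthest from the median r was 0.74, and within the genotypes it was 0.96 in LPAR2-/- and 0.54 in WT mice. The marker score itself differed by 0.03 on the log2 scale between genotypes (exact permutation p = 0.925), and 0 of its 9 genes passed the threshold.

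Sphk1, the largely cytoplasmic and inducible sphingosine kinase (chr11:116531911-116536675, plus strand), had the largest fold change of the 9 genes and the largest spread. Its levels in the 7 LPAR2-/- mice were 2.10, 1.08, 0.261, 4.91, 5.40, 3.33 and 1.02 CPM. The 7 WT mice had 1.42, 0.595, 0.814, 4.02, 0.539, 0.804 and 0.523 CPM. In 6 of 7 LPAR2-/- mice Sphk1 was above the WT median, but the lowest value of all was in LPAR2-/- mouse 3 and WT mouse 4 ranked among the highest, so the groups overlapped over almost their whole range. The highest value was 20.7 times the lowest, and the spread within genotypes exceeded that of 99.8% of the genes tested. The log2 fold change of 1.04 ± 0.61 (SE, interval -0.28 to 2.36, edgeR adjusted p = 0.344) did not pass the threshold, and its exact permutation p was 0.199. Without WT mouse 4 it was 1.72 (edgeR adjusted p = 0.105), the highest of the 14 omissions, and without LPAR2-/- mouse 5 it was 0.76, the lowest (edgeR adjusted p = 0.533). On the log2 scale of the normalized values plus a pseudocount of 1 it was 0.41 (limma adjusted p = 0.390).

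The variation of Sphk1 between mice ran in parallel with the markers of the meninges. Over 14 mice with genotype means removed, Sphk1 correlated with the mean log2 CPM of 8 meningeal fibroblast markers, among them Dcn, Col1a1, Igf2 and Slc6a13 (Pearson r = 0.91, permutation p = 4e-05, adjusted p = 0.00396 over 99 relations). Spearman's rho was 0.82 (permutation p = 0.000880, adjusted p = 0.0871). Without the 2 farthest mice r was 0.81, and within the genotypes it was 0.96 and 0.83 in LPAR2-/- and WT mice. A similar relation was observed with 8 markers of pericytes and smooth muscle (r = 0.81, permutation p = 0.000670, adjusted p = 0.0332, rho = 0.80 with adjusted p = 0.0886, r = 0.67 without the 2 farthest mice). The summed meningeal markers ranged from 76.4 to 379.5 CPM in LPAR2-/- and from 56.4 to 283.9 CPM in WT mice, the mean log2 level was higher by 0.82 in LPAR2-/- mice (exact permutation p = 0.0583), and none of the markers was at 0. Of the 8 markers 7 had a log2 fold change above 0, and 1 of them, Lum, passed the threshold (0.54, edgeR adjusted p = 0.0132). With the meningeal score as a covariate, chosen after the data were seen, the genotype difference of Sphk1 was -0.40 ± 0.30 (SE, edgeR adjusted p = 0.510).

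**Figure D3:**
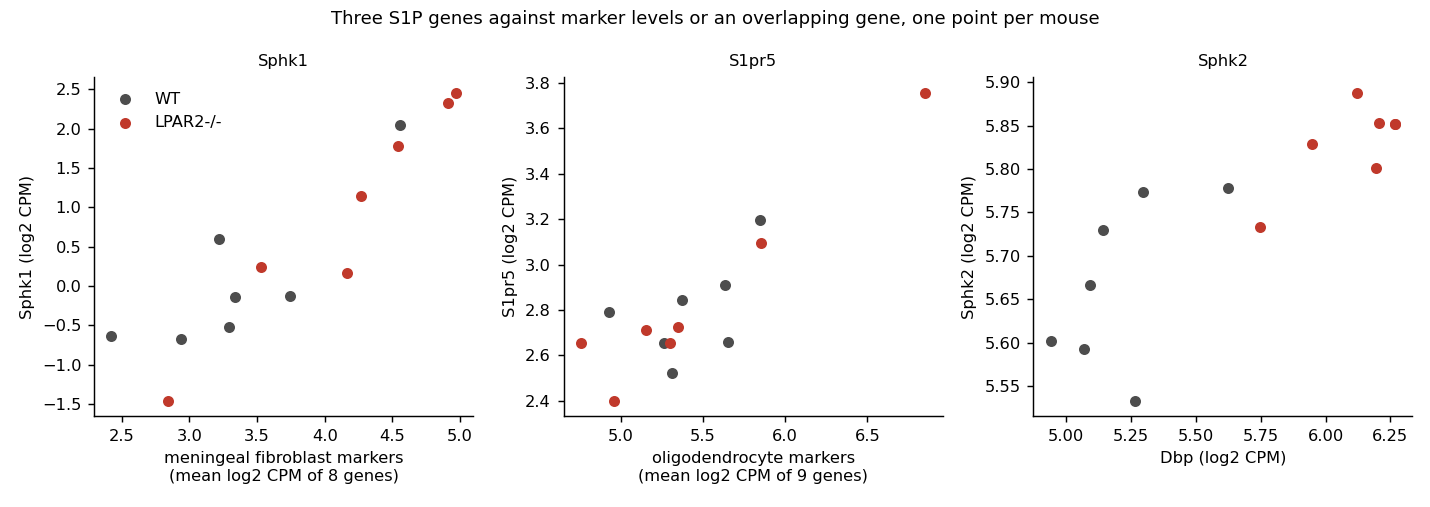
Left, Sphk1 against the mean log2 CPM of 8 meningeal fibroblast markers. Middle, S1pr5 against 9 oligodendrocyte markers. Right, Sphk2 against Dbp, the gene that overlaps it. All axes are log2 CPM, each point is 1 of 7 WT (grey) or 7 LPAR2-/- mice (red), and points of some mice coincide. Sphk1 and the meningeal markers rise together in both genotypes (r = 0.91, genotype means removed), and LPAR2-/- mouse 3 lies apart for S1pr5.

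Sphk2, the kinase found in nucleus and mitochondria, is the major sphingosine kinase of brain (chr7:45709463-45718002, minus strand). It was assigned 905 to 1339 counts in LPAR2-/- and 795 to 1161 counts in WT mice. The lowest, median and highest levels were 53.1, 57.7 and 59.1 CPM in LPAR2-/- mice and 46.2, 50.7 and 54.8 CPM in WT mice. In 6 of 7 LPAR2-/- mice the level exceeded that of the highest WT mouse, 5 of 7 WT mice lay below the lowest LPAR2-/- mouse, and LPAR2-/- mouse 3 overlapped with the WT range. The means were 56.8 ± 1.94 CPM (SD, n = 7) and 50.8 ± 3.38 CPM (SD, n = 7), a 1.12-fold difference (interval 1.05 to 1.19) with a log2 fold change of 0.16 ± 0.043 (SE, edgeR adjusted p = 0.0371). The exact permutation test of this gene gave p = 0.00233. Sphk2 was also among the steadiest of the genes, with a spread within genotypes at the 15.5th percentile. The call was kept without LPAR2-/- mouse 3, WT mouse 1, WT mouse 3 or WT mouse 6, and lost without any of the other 10 mice in turn (0.14 to 0.18 over all 14 omissions, edgeR adjusted p = 0.0175 to 0.0844).

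Sphk2 is the only member of the 9 whose annotated span overlaps another gene. Its 3′ end meets that of Dbp tail to tail over 741 bases (chr7:45709463-45710203), and 539 of these bases are exonic in both genes. They form 12.9% of the counted length of Sphk2 and 32.1% of that of Dbp. Dbp (chr7:45705247-45710203, plus strand) encodes a clock-controlled transcription factor and was higher in every LPAR2-/- mouse than in any WT mouse, with 69.3 ± 8.72 CPM against 37.1 ± 6.10 CPM (SD, n = 7 and 7, log2 fold change 0.90 ± 0.10 SE, edgeR adjusted p = 0.000133). The counting had been set to keep reads of the reverse strand, but the sources name the library kit in different ways and do not say that strand was kept. Strand was therefore examined in 24 genes that lie at least 70% within the exons of a gene on the opposite strand. Their read density had a median of 95.7% of that of the enclosing gene, and 19 of the 24 reached at least 50%. The densities ranged from 6.51% to 297.2%, and 2 of the 24 genes were under 10%. Evenness of reads along these genes was not examined. Reads of Sphk2 and Dbp in their overlap may therefore not have been fully separated, which was not tested at this site. If strand was fully lost and the reads of Dbp lay evenly along its exons, Sphk2 would hold the overlapping share of Dbp. That share of the genotype difference of Dbp would be 10.3 CPM, compared with the difference of 5.97 CPM found for Sphk2. A partial loss of strand would give a smaller share. With that share of the Dbp counts subtracted, a calculation chosen after the data were seen, Sphk2 had 32.2 to 37.0 CPM in LPAR2-/- and 33.9 to 42.0 CPM in WT mice. The log2 fold change was then -0.17, the opposite direction. Since that share exceeds the difference of Sphk2, the subtraction itself fixes the direction, and no test is given. The distribution of reads along both genes was not tested, so neither direction of Sphk2 can be taken as measured.

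Between mice of the same genotype Sphk2 followed Dbp (Pearson r = 0.60, permutation p = 0.0295, Spearman's rho = 0.60, permutation p = 0.0233, 14 mice with genotype means removed, a pair chosen after the values were seen). Without the 2 farthest mice r fell to 0.33, so that the relation rests in part on those mice, and within the genotypes it was 0.73 in LPAR2-/- and 0.56 in WT mice. Marker lists also differed between the genotypes. With the meningeal score as a covariate its log2 fold change was 0.12 (edgeR adjusted p = 0.205). The summed level of 6 striatum markers was 66.8 to 77.9 CPM in LPAR2-/- and 57.6 to 68.0 CPM in WT mice (difference of mean log2 levels 0.36, exact permutation p = 0.00350), with no marker at 0 and 0 of 6 past the edgeR threshold. Of 6 choroid plexus markers 3 could be tested and 0 passed, and the summed level was 25.4 to 288.0 CPM in LPAR2-/- against 28.2 to 33.2 CPM in WT mice (difference 1.03, exact permutation p = 0.0291). The highest value was that of LPAR2-/- mouse 2 alone, and the next mouse of that genotype had 52.0 CPM. Their part in the difference of Sphk2 was not tested. The ratio of Sphk2 to Sphk1 TPM ranged from 5.89 to 112.3 in LPAR2-/- (median 14.6) and from 6.95 to 49.3 in WT mice (median 37.0), with overlap.

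Sgpl1, the lyase that ends S1P signaling (chr10:61098642-61147665, minus strand), was the steadiest member, with a spread at the 9.75th percentile. Its lowest, median and highest levels were 46.1, 48.3 and 51.7 CPM in LPAR2-/- mice and 41.7, 47.1 and 48.8 CPM in WT mice. In 3 of 7 LPAR2-/- mice it was above the highest WT mouse, and the groups overlapped. Its log2 fold change was 0.06 ± 0.041 (SE, edgeR adjusted p = 0.394), and its interval of -0.02 to 0.15 is the narrowest of the 9. Without WT mouse 6 the difference was 0.039. Spns2, the exporter (chr11:72451638-72489920, minus strand), showed 133.8, 145.7 and 198.3 CPM in LPAR2-/- and 145.6, 164.6 and 190.6 CPM in WT mice. The highest value of all was LPAR2-/- mouse 6, while 5 of 7 LPAR2-/- mice lay below the WT median. The log2 fold change was -0.11 ± 0.084 (SE, interval -0.29 to 0.06, edgeR adjusted p = 0.454), and without LPAR2-/- mouse 6 it was -0.18 (edgeR adjusted p = 0.116).

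**Figure D4:**
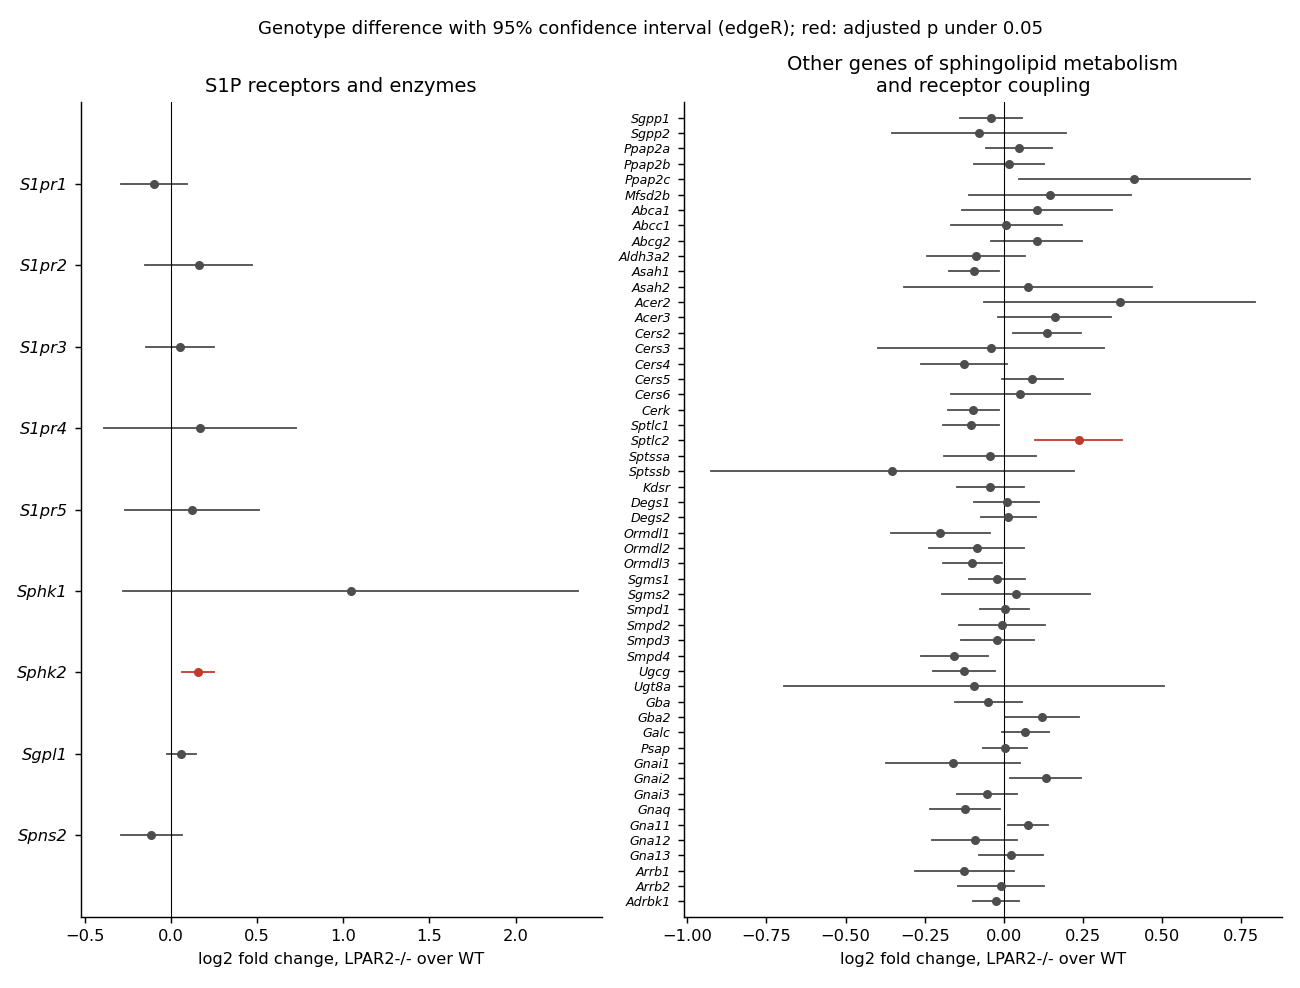
Log2 fold change of LPAR2-/- over WT mice (edgeR, points) with 95% confidence intervals (bars) for the 9 S1P genes (left) and 52 further genes of sphingolipid metabolism and receptor coupling (right), with different horizontal scales. Sphk2 and Sptlc2 (red) passed an adjusted p of 0.05, and the interval of Sphk1 is the widest of the members, from -0.28 to 2.36.

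Genes around S1P were examined as a list of 60 names, of which 56 were in the count table and 52 could be tested. Of these 1 was higher (1.92%) and 0 were lower by edgeR, against 6.77% of all genes, and 14 of 52 had an unadjusted p under 0.05, near the 22.4% of all genes. The median log2 fold change was -0.01, compared with 0.00 over all genes. The gene that passed, Sptlc2, encodes a catalytic subunit of serine palmitoyltransferase, the entry step of sphingolipid synthesis (chr12:87307889-87388230). It reached 18.7 ± 0.704 CPM in LPAR2-/- and 15.9 ± 1.76 CPM in WT mice (SD, n = 7 and 7, log2 fold change 0.24 ± 0.065 SE, edgeR adjusted p = 0.0377). Its range was 18.2 to 19.9 CPM in LPAR2-/- mice, WT mice reached down to 14.1 CPM, and the highest WT mouse lay within the LPAR2-/- range. The call was kept without LPAR2-/- mouse 3, WT mouse 1 or WT mouse 7 and lost without any of the other 11 mice (0.21 to 0.28). It was 1 of 10 genes tested for de novo synthesis, where its partner Sptlc1 had -0.10 and the inhibitory regulators Ormdl1 and Ormdl3 had -0.20 and -0.10, none past the threshold. DESeq2 in place of edgeR also called Smpd4, a neutral sphingomyelinase, lower (edgeR log2 fold change -0.16).

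In the sub-lists the counts are too small to be set apart from the shares over all genes, 6.77% called and 22.4% with an unadjusted p under 0.05. Of the S1P phosphatases and lipid phosphate phosphatases, 0 of 5 were called by edgeR or DESeq2 and 1 had an unadjusted p under 0.05, with log2 fold changes of -0.04 for Sgpp1, -0.08 for Sgpp2 and 0.41 for Ppap2c. Of the export, carriage and lyase product genes, 0 of 5 were called and 0 had an unadjusted p under 0.05, among them Mfsd2b (0.14) and Abcc1 (0.01). Apom, the S1P carrier of lipoproteins, had at most 9 counts and was not tested. Of the ceramidases, which release sphingosine for the kinases, 0 of 4 were called and 1 had an unadjusted p under 0.05, with 0.37 for Acer2 and -0.09 for Asah1. Of 6 ceramide synthase and kinase genes 0 were called and 2 had an unadjusted p under 0.05, and Cers2 stood at 0.14 and Cerk at -0.10. Of 10 genes for G proteins, arrestins and the receptor kinase Adrbk1, which act on or downstream of G protein-coupled receptors, 0 were called and 3 had an unadjusted p under 0.05, with 0.13 for Gnai2 and -0.12 for Gnaq.

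Each member was set against 11 lists of cell type or region markers, 99 relations in all, and 3 had an adjusted p under 0.05 by Pearson's r, those of Sphk1 and S1pr5 given above. By Spearman's rho 0 of 99 did. The remaining coefficients are a description. S1pr1 had its highest r with astrocyte markers (0.46) and its lowest with neuronal markers (-0.62). S1pr2 and Sphk2 had their highest with microglial markers (0.49 and 0.58), where Sphk2 had -0.12 within LPAR2-/- and 0.83 within WT mice. S1pr3 rose with meningeal fibroblast markers (r = 0.59), and with that score as a covariate its genotype difference moved from 0.05 to -0.067 (edgeR adjusted p = 0.752). Spns2 had its lowest r with neuronal markers (-0.68), with -0.63 within LPAR2-/- and -0.79 within WT mice. With oligodendrocyte precursor markers Spns2 had -0.67, but -0.96 within LPAR2-/- and 0.30 within WT mice. All these values share libraries and depth. Of the blood markers 1 of 5 could be tested, Alas2 with 17 to 73 counts, and 4 globin genes were at 0 in all libraries. Counting left out reads with several places or genes, so these zeros cannot be read as absence of blood. Whether that rule removed globin reads was not tested.

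**Figure D5:**
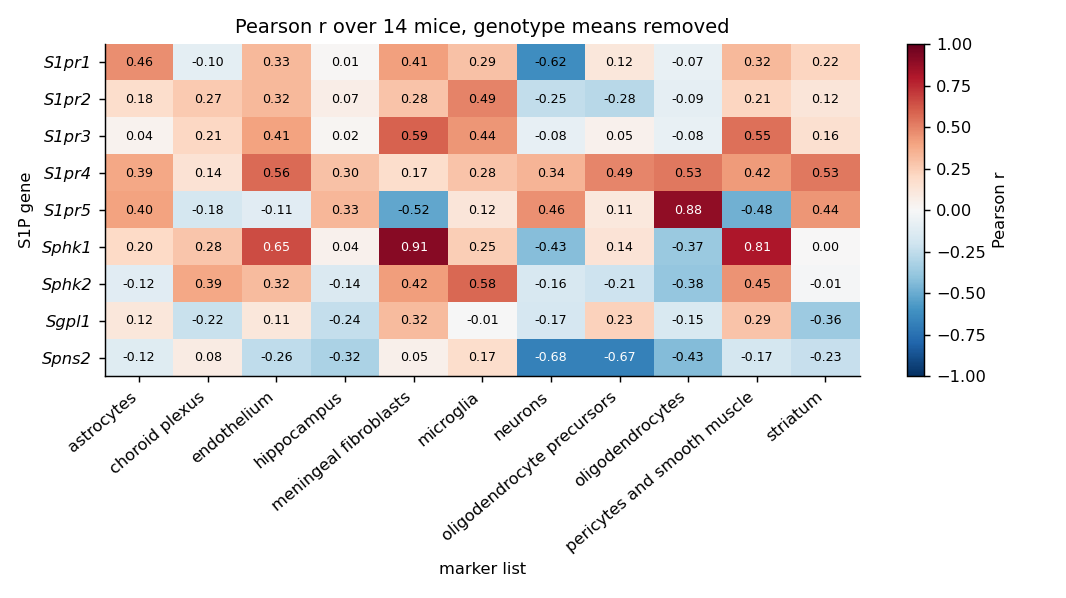
Pearson r over 14 mice, genotype means removed, between the log2 CPM of each S1P gene (rows) and the mean log2 CPM of 11 marker lists (columns), from -1 (blue) to 1 (red). The largest values are 0.91 for Sphk1 with meningeal fibroblasts, 0.88 for S1pr5 with oligodendrocytes and 0.81 for Sphk1 with pericytes and smooth muscle.

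The genes whose variation between mice was most like that of each member were listed by Pearson r over 14 mice, genotype means removed, as a description. Each r was picked as among the highest over all 14897 genes tested. It is therefore high in part by selection, and no test was made. S1pr5 was closest to Mal (r = 0.91), Mttp (0.91) and Opalin (0.91), where Mal and Opalin encode proteins of myelin. Sphk1 was closest to Prg4 (0.94), Crabp2 (0.94) and Fmod (0.94), of which Prg4 and Fmod encode extracellular proteoglycans. Fmod had 34.5 CPM in LPAR2-/- and 11.01 CPM in WT mice on average (log2 fold change 1.64, edgeR adjusted p = 0.149). Spns2 was closest to Tor1b (0.95), Fam134c (0.95) and Tbc1d16 (0.94), and S1pr1 to Llgl1 (0.91), Manf (0.90) and Gm266 (0.90). S1pr2 was closest to Cebpd (0.85), Nfkbia (0.85) and 5830411N06Rik (0.84), of which Cebpd, a transcription factor of inflammatory and glucocorticoid responses, was higher in LPAR2-/- mice (0.37, edgeR adjusted p = 0.0268). For S1pr3 the genes were Pdgfrl (0.85), Tlr12 (0.85) and Ftsj2 (0.85), and for S1pr4 Casq1 (0.88), Afg3l1 (0.87) and Irf8 (0.85), the last a transcription factor of microglia and myeloid cells. With the list of microglial markers S1pr4 had r = 0.28 (-0.19 within LPAR2-/- and 0.63 within WT mice). Sphk2 was closest to Atf5 (0.86), Penk (0.83) and Ppp1r12c (0.79), and Sgpl1 to Col6a2 (0.86), Rspo3 (0.86) and Rnf215 (0.86). Among the members themselves the highest r was 0.60, between S1pr3 and Sphk1, and the lowest -0.56, between S1pr5 and Sphk2.

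Because the colonies were bred separately, the neighbours of each member were inspected. Within 1 Mb of the 9 genes 7 of 331 genes tested passed the threshold (2.11%), compared with 6.77% of all genes. Near Sphk2 3 of 79 passed, among them Dbp and the ribosomal protein gene Rpl13a (0.14, edgeR adjusted p = 0.0374). Near Spns2 1 of 25 passed, Slc13a5, which encodes a citrate transporter (0.49, edgeR adjusted p = 0.00441). S1pr2 and S1pr5 share a region of chromosome 9 in which Ccdc159 (-0.21, edgeR adjusted p = 0.0197) was among the genes that passed. Near S1pr4 1 of 67 passed, Izumo4 (0.20, edgeR adjusted p = 0.0397). Near S1pr1, S1pr3, Sphk1 and Sgpl1 0 of 15, 7, 51 and 23 genes passed in the edgeR fit. Within 5 Mb of a member 38 of 940 genes passed (4.04%), so the share depends on the window.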

How the data were processed

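Hippocampal RNA of 14 mice had been sequenced by the authors, who used cutadapt 1.18 for trimming and STAR for alignment to mm10. Per the file headers, featureCounts 1.6.3 counted exonic reads of the reverse strand and left out reads with several places or genes. The deposited counts were the main data. The deposited normalized values, a score equal to counts divided by DESeq2 1.22.2 size factors and by gene length, served as an alternative, after restoring decimal marks. Of the values of 16038 entries matched to a counted gene, out of 16510, 99.9% lay within 1% of counts scaled in that way. Their log2 columns were not used.

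After TMM scaling and filterByExpr, genotypes (7 mice each, no covariate) were compared in R 4.3.3 with edgeR 4.0.16, using its quasi-likelihood test in the robust setting. P-values were adjusted over 14897 genes after Benjamini and Hochberg, with a threshold of 0.05. Intervals are 95%. CPM used TMM-scaled libraries (prior count 2 on the log2 scale), and TPM the counted exon lengths. Single genes were compared with exact two-sided permutation tests (3432 arrangements) and correlations with two-sided permutation tests (100000 resamples within genotype). A count of 0 allows up to 3 counts, 0.129 to 0.194 CPM, for counting error only. Alternatives were DESeq2 1.42.0, limma 3.58.1, other scalings and filters, a replicate block, omission of each mouse and marker covariates.

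Named were all members, Lpar2, pathway genes past the threshold (with sub-list examples chosen after their values were seen), at most 3 called neighbours (some are not reported here) and the 3 most alike genes per member. The check of strand, added after seeing the data, took enclosed genes of at least 200 bases and enclosing genes with at least 500 counts. Members and lists were chosen with earlier results of these data known. On simulated data with 200 changed genes, edgeR recovered 81% of 1.5-fold and 94% of 2-fold changes, and 7.41% of its calls were of unchanged genes. No 2 libraries of a genotype agreed within sampling noise (42 pairs, lowest chi-square per degree of freedom 3.29).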

Additional observations from a re-analysis of the deposited data

Results flagged for a closer look

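On the CPM scale 24 groups of 7 mice (12 genes in each genotype) were examined, and 2 held a mouse far from the others. For values of normal spread, chance alone would give about 1 in 20. The log2 scale draws high values closer together. The check was not repeated there, so the 2 results are given for the CPM scale only. S1pr5 was 13.4 CPM in LPAR2-/- mouse 3, with the next mouse of that genotype at 8.44 CPM. The same mouse had the highest summed oligodendrocyte markers, 3853 CPM. Sphk1 was 4.02 CPM in WT mouse 4, with the next WT mouse at 1.42 CPM. This mouse also had the highest summed meningeal fibroblast markers of its genotype, 283.9 CPM.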

How the results depend on the processing

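Of 461 values recomputed under an alternative, 25 lost the threshold, 31 moved, 4 reversed and 401 did none of these. Only Sphk2 of the 9 members was called in the main fit. An uncalled gene counted among the 401 while it kept its sign and stayed uncalled, so that number does not measure stability. Tested values were judged by direction and threshold, counts by a factor of 1.5 and values with no test by 1 SD between mice (the neighbour share by its 95% binomial interval). Within that tolerance the median of the pathway genes crossed from -0.01 to 0.0049 with upper quartile scaling and to 0.0018 without WT mouse 3. Sphk2 was called by edgeR with each other scaling and filter, by DESeq2 and by limma, but stood at -0.17 with the overlapping share of Dbp counts subtracted, a direction that the subtraction fixes by its size and that assumes a full loss of strand. With the meningeal fibroblast score as a covariate Sphk2 had 0.12 (edgeR adjusted p = 0.205), S1pr3 reversed to -0.067 and Sphk1 to -0.40, 200 genes were higher and 230 lower, and 0 pathway genes were higher (Sptlc2 had 0.25, adjusted p = 0.0941). In that fit S1pr5 had 0.33, S1pr1 -0.18, S1pr2 0.064, S1pr4 0.087 and Sgpl1 0.033, none past the threshold. With the oligodendrocyte score 2 pathway genes (Ugt8a and Gnaq) were lower, and with DESeq2 1 (Smpd4). Both covariates and the subtraction were chosen after seeing the data. When the mouse number entered as a replicate block, Sphk2 had 0.16 (edgeR adjusted p = 0.107), Sptlc2 0.24 (adjusted p = 0.0563), 0 pathway genes were higher, and 314 genes were higher and 272 lower, against 494 and 515. The block changed no other call among the 9 genes. Same-numbered mice did not all deviate together (r from -0.33 to 0.31, 3 of 7 pairs above 0.1, 3 of 7 LPAR2-/- mice most alike to their own number), so the numbers were not taken to pair the mice, though the last count is a hint from the data. Leaving out each mouse in turn gave 275 to 660 genes higher and 292 to 725 lower (lowest without WT mouse 2, highest without WT mouse 1), 0 to 1 pathway genes in each direction, 0.14 to 0.18 for Sphk2 and -0.087 (without LPAR2-/- mouse 3) to 0.20 for S1pr5. Upper quartile scaling called 62.0% of the genes past the threshold higher, against 49.0%, and moved the median of all genes to 0.02. In counts not divided by length the share of S1pr3 was 5.71% in WT and 6.18% in LPAR2-/- mice. Requiring at least 10 counts in every library left 7 members, without S1pr4 and Sphk1. Except where stated, the cause was not tested.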
